A study of Mus musculus with 6 samples.

Results

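Ly6c2 monocytes were followed in CD45-positive cells from mouse colon tumours labelled Control or SOX17KO. They were chosen by measured counts, as barcodes with at least 200 genes and at most 10% mitochondrial UMIs (unique molecular identifiers, each standing for 1 captured RNA molecule) that held at least 5 Lyz2 and at least 2 Ly6c2 UMIs. They also held no UMI of C1qa, C1qb or C1qc, of Siglech, of Cd3d, Cd3e or Cd3g, or of Cd79a, and fewer than 2 each of Csf3r, Cxcr2 and Retnlg summed, of Cd209a, and of Xcr1 and Clec9a summed. This gave 2086 monocytes among 33862 barcodes that passed the quality filter, of 34607 deposited. The study sequenced 6 droplet libraries (10x 3' chemistry): a Control and a SOX17KO library with no time in the labels (the untimed pair), a pair at 1 week and a pair at 2 weeks. The tumours of 5 mice were pooled for each condition, so each library is 1 pool and no animal can be told apart within it. Cells were sorted as viable, EpCAM-negative and CD45-positive, which leaves leukocytes and removes epithelial tumour cells. Strain, age, sex, what started the tumours, which cells lack SOX17 and what the weeks are counted from are not given in the sources used here. Sox17 had 1 UMI in the monocytes of the SOX17KO 1-week library and 0 in those of the other libraries, where 3 counts would be 0.771 to 54.1 CPM (UMIs of a gene per 1000000 UMIs of the class), so the monocytes hold no check of the knockout.

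SOX17 is a transcription factor of the embryonic endoderm. Ly6C-high monocytes, the classical monocytes of the mouse, leave the bone marrow through the chemokine receptor CCR2 and enter inflamed tissue and tumours. There they can turn into macrophages or antigen-presenting cells, and they respond strongly to interferons. Ly6c2 encodes a surface protein of these cells, Lyz2 lysozyme, Chil3 a chitinase-like secreted protein, and Plac8 a protein abundant in circulating monocytes.

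The label was checked against genes that the choice of members did not use. Levels are UMIs summed over the cells of a class in a library, as CPM, given as the mean of the 4 timed libraries with the lowest and highest. Chil3 averaged 848 CPM in the monocytes (533 to 1058) against 273 in C1q-positive macrophages, 415 in neutrophils and 5 in T cells. Plac8 averaged 5500.3 CPM (4737 to 5848), against 2747 in the macrophages, 3191 in neutrophils and 421 in T cells. Vcan, which encodes the matrix proteoglycan versican, averaged 453 CPM in monocytes and 89 in macrophages, and F13a1, coagulation factor XIII A, 483 and 289. Ifitm6 was also higher in monocytes than in the macrophages, at 310.1 against 53 CPM. In neutrophils Vcan, F13a1 and Ifitm6 averaged 200, 218 and 198 CPM. Ccr2 was nearly as high in macrophages, at 1045 CPM, as in monocytes, at 1257. The neutrophil genes S100a8 and S100a9 averaged 55 and 20 CPM in monocytes against 6645 and 7361 in neutrophils, and the dendritic gene Flt3 averaged 8 CPM. Apoe, a macrophage gene that the rule did not use, stood at 986 CPM in monocytes and 2868 in macrophages, so the monocytes were not free of macrophage transcripts. Of 4 erythroid markers all were at 0 in every library, and the summed epithelial markers reached at most 7.48 CPM. These levels describe the classes and have no test, since gates on the same counts set them. Ly6c2 itself averaged 1185 CPM in monocytes and 434 in macrophages, and Lyz2 8987 and 4765, which the rule fixes.

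The borders of the gate were crowded. Of the members, 433 had exactly 2 Ly6c2 UMIs, and 546 barcodes that met every other criterion had exactly 1. On the C1q side, 1804 barcodes failed only the C1q criterion, and 242 of them had a single C1q UMI. On the neutrophil side, 701 members held 1 UMI of Csf3r, Cxcr2 or Retnlg and 309 otherwise matching barcodes held 2. The gate therefore divides a continuous range of cells. Median depth was 6964 UMIs per monocyte in the untimed Control library and 5887 in the untimed SOX17KO library. It was 5499 and 6388.5 in the 1-week Control and SOX17KO libraries and 4078 and 5232 in the 2-week Control and SOX17KO libraries. Libraries held 18281322 to 52150180 UMIs over all barcodes. No monocyte barcode was shared between libraries.

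In the timed libraries the share of monocytes differed more between the weeks than between genotypes. At 1 week monocytes were 12.4% of kept barcodes in the Control library (681 of 5492, exact Clopper-Pearson 95% interval 11.5% to 13.3%) and 11.2% in the SOX17KO library (818 of 7309, 10.5% to 11.9%). At 2 weeks they were 5.96% (285 of 4783, 5.30% to 6.67%) and 6.77% (204 of 3013, 5.90% to 7.73%). In the untimed pair they were 1.29% in Control (89 of 6883, 1.04% to 1.59%) and 0.141% in SOX17KO (9 of 6382, 0.0645% to 0.268%). The untimed pair thus held far fewer monocytes than the timed libraries, and its SOX17KO library hardly any. Intervals cover counting error only.

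The log2 odds ratio of SOX17KO against Control was -3.14 in the untimed pair (95% interval -4.39 to -2.22), -0.17 at 1 week (-0.33 to -0.01) and 0.20 at 2 weeks (-0.08 to 0.47). Its mean of -1.04 (SD 1.83, n = 3 pairs) was smaller than the spread between pairs (two-sided exact sign-flip permutation test, p = 0.75, where 3 pairs allow no p below 0.25). Without the untimed pair the mean was 0.01. From 1 week to 2 weeks the log2 odds ratio was -1.16 in Control (-1.37 to -0.95) and -0.79 in SOX17KO (-1.03 to -0.56), which has no test with 1 library per group. A share of all barcodes moves with the other classes: T cells, gated on at least 2 Cd3 UMIs and no Lyz2, were 1.69% and 1.70% of barcodes in the Control and SOX17KO libraries at 1 week and 42.3% and 23.7% at 2 weeks. Counted against C1q macrophages alone, monocytes were 39.7 per 100 of both classes in Control and 36.9 in SOX17KO at 1 week, 54.5 and 46.2 at 2 weeks, and 92.7 and 21.4 in the untimed pair, the last on 9 monocytes and 33 macrophages. By this measure SOX17KO was lower in each of the 3 pairs, and the exact 95% intervals overlapped at 1 week (37.4 to 42.0 and 34.9 to 38.9) and at 2 weeks (50.1 to 58.8 and 41.4 to 50.9). Against macrophages the share was higher at 2 weeks than at 1 week in both genotypes, and the macrophages' own share of barcodes went from 18.8% and 19.2% to 4.98% and 7.90%.

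**Figure D1:**
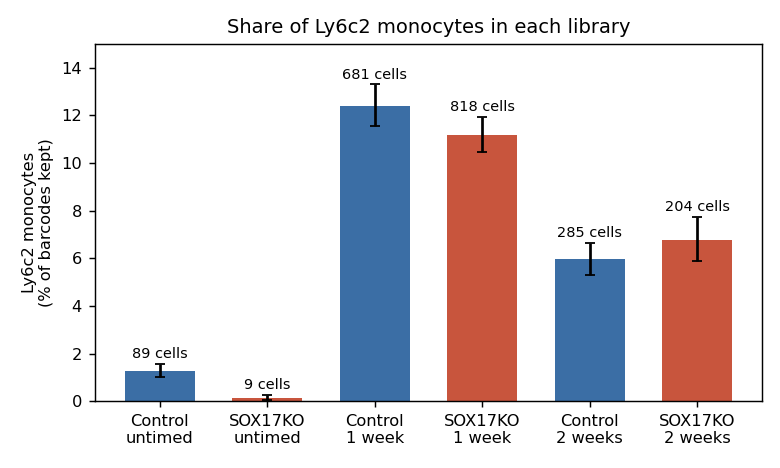
Bars give the share of Ly6c2 monocytes among kept barcodes (%, vertical axis) in each of the 6 libraries, with exact 95% binomial intervals and the number of monocytes above, blue for Control and red for SOX17KO. The 1-week libraries stand at 12.4% and 11.2%, the 2-week libraries at 5.96% and 6.77%, and the untimed libraries at 1.29% and 0.141%.

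The monocytes varied among themselves. Over all 2086, the median cell held 39 Lyz2, 5 Ly6c2, 30 Plac8 and 5 Ccr2 UMIs. Plac8 was found in 99.7% of them and Ccr2 in 94.2%, while Chil3 was found in 62.8%, with a median of 2 UMIs and a highest cell of 86. H2-Aa, a chain of MHC class II, which presents peptides to CD4 T cells, was found in 59.3% and reached 113 UMIs in 1 cell.

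For shares that do not follow depth, each cell was thinned to 1000 UMIs, which left out 0 to 10 monocytes per library. An H2-Aa UMI then remained in 46.3% of Control and 42.4% of SOX17KO monocytes at 1 week, and in 53.2% and 53.5% at 2 weeks, with 60.8%, 59.7%, 63.9% and 60.8% unthinned. T cells, which should lack it, kept one in 22.6% (of 93 cells), 6.5%, 2.7% and 3.0% in the same order, at median depths of 6291, 5024.5, 5073.5 and 5711.5 UMIs. The share of monocytes was above that of T cells in each of these 4 libraries. Arg1, which encodes the arginine-degrading enzyme arginase 1, remained in 13.6% of Control and 10.9% of SOX17KO monocytes at 1 week and in 10.4% of each at 2 weeks. T cells of the Control 1-week library kept it in 9.7%, close to the monocytes' 13.6%, and those of the other timed libraries in 0.5% to 1.6%. Cxcl9, a chemokine that attracts T cells and is induced by interferon-gamma, remained in 33.5% and 33.8% of monocytes at 1 week and in 16.8% and 20.8% at 2 weeks, against 1.0% to 3.3% of T cells. Nos2, the inducible nitric oxide synthase, remained in 2.8% and 6.2% at 1 week and 4.6% and 6.9% at 2 weeks, against 0% to 1.1% of T cells.

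Monocytes with and without an H2-Aa UMI after thinning differed in other genes in the same direction in all 4 timed libraries. Chil3 stood at 409 CPM with and 648 without H2-Aa in the Control 1-week library, 663 and 1344 in SOX17KO at 1 week, 404 and 1142 in Control at 2 weeks, and 743 and 1359 in SOX17KO at 2 weeks. Each library had less Chil3 in the H2-Aa-positive cells. Fn1, the matrix protein fibronectin, stood at 326 to 659 CPM with H2-Aa and at 859 to 1474 without, so the ranges did not overlap. F13a1 (177 to 395 against 449 to 903 CPM) and Vcan (207 to 304 against 482 to 769) were lower in the H2-Aa-positive cells too. Mrc1, the mannose receptor of macrophages, went the other way, at 151 to 372 CPM with and 30 to 192 without, with overlapping ranges but a higher value with H2-Aa in each library. Ccr2 was also higher with H2-Aa in each library, by little in Control at 1 week (1020.2 against 1019 CPM) and by more in SOX17KO at 1 week (1187 against 1017), Control at 2 weeks (1528 against 1262) and SOX17KO at 2 weeks (1686 against 1357). Ly6c2, a gene of the rule, stood at 1062, 1022, 1335 and 1727 CPM with and 1012, 973, 1183 and 1121 without, in the same order. The dendritic genes Flt3 and Zbtb46 stayed at or below 23 CPM on both sides, and Cd209a, which the rule limits, at or below 3.34 CPM. The cells of a library are not replicates, so these differences have no test.

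**Figure D2:**
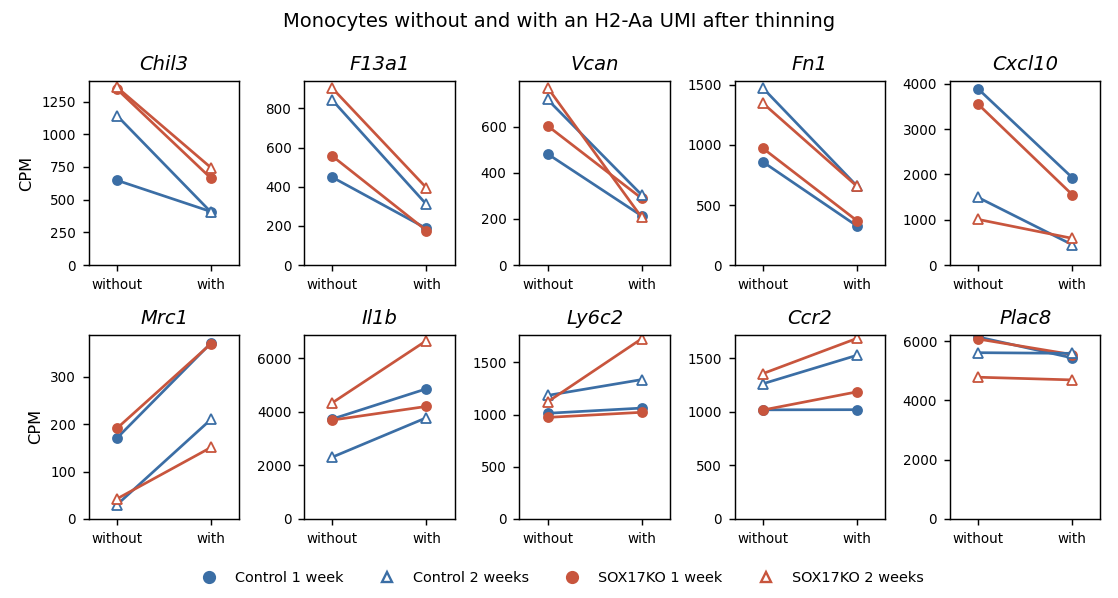
Each panel gives the level of 1 gene (CPM, vertical axis from 0) in monocytes without and with an H2-Aa UMI after thinning to 1000 UMIs, 1 line for each of the 4 timed libraries. Chil3, F13a1, Vcan, Fn1 and Cxcl10 slope down and Mrc1 and Il1b slope up in every library.

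The comparison of 2 weeks with 1 week asks how monocytes of these tumours differed between collection times. It used the 4 timed libraries, with edgeR's quasi-likelihood test on summed counts and genotype as a term, leaving 1 residual degree of freedom. The time and the day of collection cannot be told apart. Most genes of the type I interferon list (38 of 43) and of the interferon-gamma list (21 of 33) fell, as did 12 of 19 chemokine ligands, of which 2 rose. Among immediate early and stress genes 10 of 23 rose, and among hypoxia and glycolysis genes 7 of 28. Of 9148 genes tested, 1361 (14.9%) passed an adjusted p of 0.05, with 561 higher (6.13%) and 800 lower (8.75%). With library totals in place of TMM scaling the median gene moved to 0.11 and the split turned to 804 higher and 531 lower, so the balance of directions turned with the scaling. The 20 genes with the largest changes kept their direction in all 12 alternative settings, and 18 of them passed the threshold in all.

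Several chemokine ligands were among the named genes that fell. Ccl7, a ligand of CCR2 that draws monocytes, was at 310.3 CPM in Control and 189.6 in SOX17KO at 1 week, and at 27.6 and 7.22 at 2 weeks, 21.2 in the untimed Control library and 0 UMIs in the untimed SOX17KO library. The 1-week and 2-week values did not overlap, and the log2 fold change was -3.97 (SE 0.23, edgeR adjusted p = 9.39e-32). Ccl24, a ligand of the eosinophil receptor CCR3, was at 1453 and 1202 CPM at 1 week and 169 and 64.1 at 2 weeks, a change of -3.70 (SE 0.19, edgeR adjusted p = 6.13e-36). Ccl12, another CCR2 ligand, went from 241 and 203 CPM to 35.7 and 6.32 (-3.53, SE 0.23, edgeR adjusted p = 3.17e-27). Ccl2, the main CCR2 ligand, went from 909 and 818 CPM to 329 and 176 (-1.93, SE 0.17, edgeR adjusted p = 1.28e-18). In each of these 4 genes both 2-week libraries lay below both 1-week libraries.

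Ccl2, Ccl7, Ccl12 and Ccl8 are neighbours in the mm10 genome at chr11:82035571-82037453, chr11:82045712-82047525, chr11:82101845-82103400 and chr11:82115185-82116799, all protein-coding on the plus strand. Ccl24 lies elsewhere, on the minus strand at chr5:135569937-135573049. Ccl8 fell from 63.7 and 116 CPM to 6.48 CPM in Control and to 0 UMIs in SOX17KO, a fall of at least 42.8-fold there against a floor of 3 counts in the library. The interferon-induced ligands of CXCR3 fell less: Cxcl10 from 2942 and 2665 CPM to 958 and 804 (-1.78, SE 0.17), and Cxcl9 from 1100.3 and 1309 to 580.2 and 740.0 (-0.98, SE 0.16). Of 19 ligands tested, 12 were called lower and 2 higher, with a median of -1.09 against 0.01 over all genes. The 2 that rose were Ccl3 (0.55, edgeR adjusted p = 0.00756) and Cxcl16 (0.62, edgeR adjusted p = 0.00483). The neutrophil attractant Cxcl2 did not pass, at 501 and 668 CPM at 1 week and 433 and 515 at 2 weeks.

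Myeloid RNA in T cells moved with the chemokines in 1 library. T cells of the Control 1-week library held 556 CPM of Ccl24, against 63.3 in SOX17KO at 1 week and 3.8 in each 2-week library, and their summed macrophage markers (8 genes) stood at 603 CPM against 205, 16.0 and 39.6. Monocytes held 1453 CPM of Ccl24 in that library, above the T cells, and the part of such RNA in the fall was not tested. In SOX17KO at 1 week, where T cells held 63.3 CPM, monocytes held 1202.

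**Figure D3:**
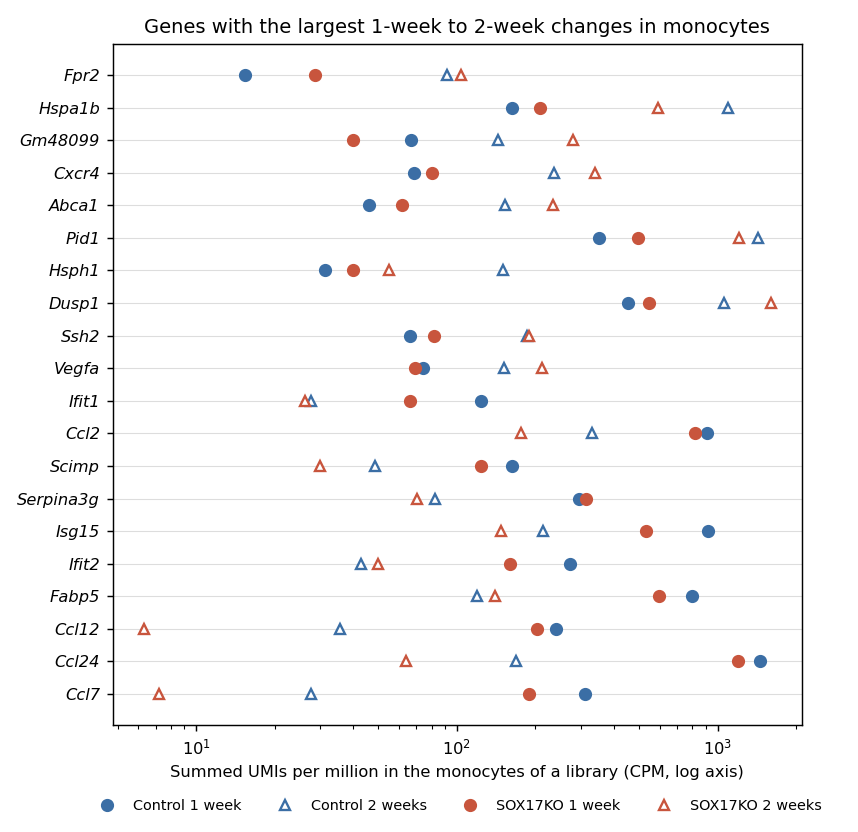
Each line of the vertical axis is 1 of the 20 genes with the largest changes, and the horizontal log axis gives its level (CPM) in the monocytes of the 4 timed libraries, filled circles for 1 week and open triangles for 2 weeks, blue for Control and red for SOX17KO. For every gene both triangles lie on the same side of both circles, from Ccl7 (310.3 and 189.6 to 27.6 and 7.22) to Fpr2 (15.4 and 28.6 to 91.6 and 104).

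Type I interferons act through transcription factors that bind the interferon-stimulated response element in the promoters of antiviral genes. Of 43 tested members of the type I interferon list, 38 were called lower at 2 weeks and 0 higher, with a median of -1.0 against 0.01 over all genes. In 39 of the 43 the level was lower in both genotypes, and the median log2 ratio was -1.08 in Control and -0.68 in SOX17KO. The list was chosen with earlier results of these data known, so its count describes these libraries. With library totals in place of TMM the median was -0.90.

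Isg15, a ubiquitin-like protein attached to others during infection, was at 918 CPM in Control and 530.2 in SOX17KO at 1 week and at 213 and 147 at 2 weeks, with a log2 fold change of -2.09 (SE 0.17, edgeR adjusted p = 6.14e-21). Ifit2 and Ifit1, which bind foreign RNA, fell from 272.5 and 159.7 CPM to 43.0 and 49.6 and from 124 and 66.4 CPM to 27.6 and 26.2. Irf7, the factor that amplifies interferon production, fell from 336 and 245 CPM to 104 and 116 (-1.49, SE 0.17, edgeR adjusted p = 3.33e-12), and Zbp1, a sensor of viral nucleic acid, from 771 and 653 to 348 and 319. The groups did not overlap in any of these genes. Irf9, a factor that carries the interferon signal to the nucleus, did not pass, at 59.8 and 57.4 CPM and then 77.0 and 87.5 (0.38, edgeR adjusted p = 0.164). Stat2, another such factor, did pass, from 121 and 124 to 82.7 and 87.5 CPM (-0.63, edgeR adjusted p = 0.00637).

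The letters of the response element were searched in the 250 bases before gene starts in RefSeq's promoter table (GRCm38.p6), as GAAA, any 2 bases and GAAA again, on either strand, with overlapping matches counted. They occurred in 3.04% of all 27025 promoters and in 3.12% of those of tested genes. In the interferon list they occurred in 16 of 34 members with an entry (47.1%). These were 13 of 29 members called lower at 2 weeks (44.8%) and 3 of 5 other members (60.0%). Among all genes called lower at 2 weeks the share was 7.60% (49 of 645, which include the 13 list members). Among those called higher it was 3.39% (15 of 443). A link between the letters and the fall was not tested. The 4 sequences below are the 200 bases upstream of those members called lower and present in the promoter table that had the highest level, printed 5' to 3' on the gene's strand with the matches in capitals, to show what the counts refer to. They lie at chr19:11407461-11407660 (plus strand), chr1:173880188-173880387 (minus), chr11:82951902-82952101 (plus) and chr4:156200819-156201018 (minus).
Ms4a4c: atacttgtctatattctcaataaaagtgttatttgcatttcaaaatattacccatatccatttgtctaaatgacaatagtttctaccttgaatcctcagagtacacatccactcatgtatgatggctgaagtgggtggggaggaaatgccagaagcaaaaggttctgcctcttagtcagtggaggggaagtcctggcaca
Mndal: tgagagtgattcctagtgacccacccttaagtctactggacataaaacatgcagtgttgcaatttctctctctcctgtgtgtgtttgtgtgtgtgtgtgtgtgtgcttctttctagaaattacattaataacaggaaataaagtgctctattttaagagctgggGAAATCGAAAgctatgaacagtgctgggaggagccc
Slfn5: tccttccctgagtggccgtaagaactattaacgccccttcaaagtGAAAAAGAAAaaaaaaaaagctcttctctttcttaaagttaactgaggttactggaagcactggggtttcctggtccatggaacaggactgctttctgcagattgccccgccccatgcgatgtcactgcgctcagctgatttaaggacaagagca
Isg15: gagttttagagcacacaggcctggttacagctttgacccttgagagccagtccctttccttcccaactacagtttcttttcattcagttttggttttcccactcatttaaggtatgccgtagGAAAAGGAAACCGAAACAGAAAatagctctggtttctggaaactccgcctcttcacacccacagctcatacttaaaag
Isg15 carried 3 overlapping matches that open at position -78 from the start, Mndal 1 at -36, Slfn5 1 at -155, and Ms4a4c none. Isg15 fell by 2.09 on the log2 scale, Slfn5 by 1.01, Mndal by 0.79 and Ms4a4c by 0.63. A match describes letters in this window and no binding was measured.

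Interferon-gamma, made by T and NK cells, drives guanylate-binding proteins and antigen processing. Of 33 genes tested, 21 were lower and 0 higher, with a median of -0.68. Serpina3g, a protease inhibitor, fell from 294 and 313 CPM to 82.7 and 70.4, with no overlap (-2.09, SE 0.17, edgeR adjusted p = 2.62e-19). Gbp2, a guanylate-binding protein active against intracellular microbes, fell less, from 1726 and 1893 to 1117 and 1322 CPM (-0.68, SE 0.16, edgeR adjusted p = 0.000836), and Cd274, which encodes the checkpoint ligand PD-L1, from 807 and 818 to 506 and 521. Irf1 did not pass, at 492 CPM in both genotypes at 1 week and 475 and 427 at 2 weeks. MHC class I genes were called lower in 6 of 22, and MHC class II genes in 1 of 14, a share near the 8.75% of all genes called lower. NK cell markers summed to 91.7 and 54.4 CPM in the monocytes at 1 week and to 7.29 and 1.80 at 2 weeks, and all 3 tested were called lower. Over all kept barcodes the same markers went the other way, from 404 and 315 CPM to 1186 and 765. A link of either to the interferon-gamma genes was not tested. T cell markers summed to 4.68 to 12.2 CPM in the timed libraries, with Cd3d, Cd3e and Cd3g at 0 by the rule.

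Genes of the passage from monocyte to macrophage fell in 8 and rose in 2 of 23. Fabp5, a fatty acid carrier, fell from 799 and 598 CPM to 119.9 and 139.9 (-2.52, SE 0.17, edgeR adjusted p = 1.51e-25), Mrc1 from 268 and 271 to 124 and 95.7 and the transcription factor gene Maf from 216 and 186 to 94.8 and 102. The lipid carrier gene Apoe rose, from 775 and 773 to 1216 and 1181 CPM (0.53, SE 0.16, edgeR adjusted p = 0.0103). Among 27 classical monocyte genes 4 rose and 4 fell, beside 6.13% and 8.75% of all genes. F13a1, Gsr, Fn1 and Klf4 rose, and Fcgr1, Ifitm3, Ms4a4c and Spi1 fell, of which Fcgr1 stands also in the interferon-gamma list and Ms4a4c in the type I list. Ly6c2 (0.30, edgeR adjusted p = 0.21), Ccr2 (0.36, edgeR adjusted p = 0.114) and Plac8 (-0.28, edgeR adjusted p = 0.293) did not pass.

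The genes that rose held heat shock and immediate early genes. Hspa1b, an inducible HSP70 chaperone, went from 162 and 209 CPM to 1094 and 591 (2.02, SE 0.17, edgeR adjusted p = 3.12e-19), with no overlap. Dusp1, a phosphatase that shuts off MAP kinases, went from 452 and 544 to 1062 and 1597 (1.29, SE 0.16), and Fos from 854 and 985 to 1769 and 2526 (1.10, SE 0.16). Of 23 genes of the immediate early and stress list 10 rose and 0 fell, with a median of 0.36. Such genes also respond to tissue digestion and sorting, whose part was not tested. Cxcr4, the receptor that holds cells in marrow and hypoxic tissue, rose from 68.3 and 80.4 CPM to 236 and 337 (1.83, SE 0.16, edgeR adjusted p = 6.29e-18). Fpr2, a receptor for formylated peptides, rose from 15.4 and 28.6 to 91.6 and 104 (2.07, SE 0.20), and Abca1, which exports cholesterol, from 46.2 and 61.5 to 153 and 234 (1.73, SE 0.17). Vegfa, an inducer of blood vessel growth, rose from 74.0 and 69.2 to 152 and 213 (1.23, SE 0.17), and Egln3, an oxygen sensor, from 17.5 and 26.4 to 81.8 and 70.4 (1.69, SE 0.21). The hypoxia and glycolysis list had 7 higher and 1 lower of 28. Most glycolytic enzymes did not pass, such as Ldha at 404 and 397 CPM and then 430.3 and 412.

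The inflammatory cytokine Il1b, high throughout, was at 4288 CPM in Control and 3925 in SOX17KO at 1 week and at 3072 and 5478 at 2 weeks (-0.10, SE 0.17, edgeR adjusted p = 0.761), with overlap. In the suppressive list 8 of 21 fell and 4 rose. Pdcd1lg2, which encodes the checkpoint ligand PD-L2, fell from 171 and 113 CPM to 38.9 and 48.7, Arg1 from 515 and 554 to 477 and 282 (-0.64, SE 0.16, edgeR adjusted p = 0.00199), and Thbs1, the matrix protein thrombospondin 1, rose from 1073 and 1153 to 1989 and 2770.3 (0.97, SE 0.16). Among genes of nonclassical monocytes, the patrolling subset, Cx3cr1 rose from 19.5 and 16.3 to 40.5 and 40.6 CPM, while Fcgr4 fell from 373 and 342 to 172 and 206.

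**Figure D4:**
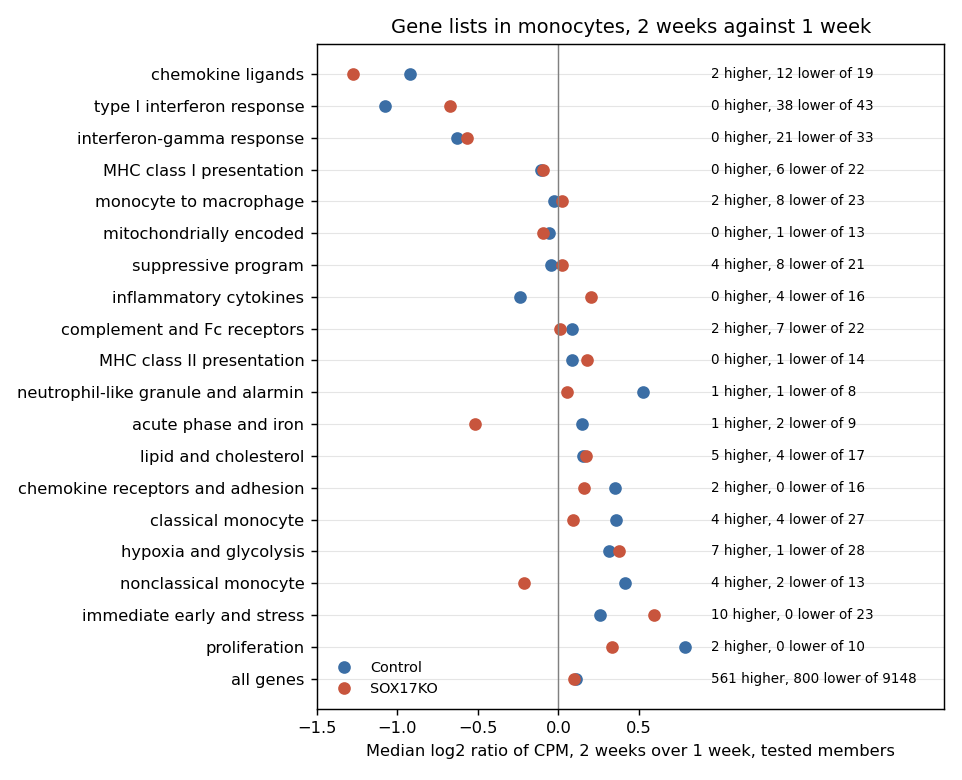
Points give the median log2 ratio of CPM at 2 weeks over 1 week (horizontal axis) over the tested members of each gene list, blue for Control and red for SOX17KO, and the text gives how many members passed the threshold higher or lower. Chemokine ligands and both interferon lists lie to the left in both genotypes, at -0.57 or lower, and immediate early and stress genes to the right, beside 0.11 and 0.09 for all genes.

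C1q-positive macrophages of the same libraries, the most similar class, were the reference for what differed in monocytes. In the macrophages 184 of 10666 genes (1.73%) were called between the weeks. At an unadjusted edgeR p under 0.05 there were 2068, against 2439 of 9148 (26.7%) in monocytes. The test also draws on the spread of all genes, which weighed less in the macrophage fit (prior degrees of freedom 7.63 against 123). The called counts of the classes are therefore not directly comparable. All 20 genes named above had the same direction in macrophages and 16 passed the threshold. Tested directly, with library as a term, the difference between weeks differed between the classes for 155 of 10039 genes (1.54%), 60 higher in monocytes (0.598%) and 95 lower (0.946%). Ccl24 fell further in monocytes than in macrophages, where it went from 1855 and 2015 CPM to 518 and 286 (difference -1.45, SE 0.18, edgeR adjusted p = 6.65e-12). Scimp, an adaptor of MHC class II and Toll-like receptor signalling, fell in monocytes from 163 and 123 CPM to 48.6 and 29.8 and was at 116 and 93.3, then 113 and 49.5 in macrophages (difference -1.58, SE 0.24, edgeR adjusted p = 7.7e-08). Fabp5 differed by -1.14 (SE 0.18, edgeR adjusted p = 4.13e-07) and the antiviral gene Rsad2 by -0.97 (SE 0.18, edgeR adjusted p = 5.91e-05).

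Some genes were lower at 2 weeks in macrophages and not in monocytes. Vcan was at 351 and 463 CPM and then 506 and 493 in monocytes, and went from 113 and 164 to 52.6 and 26.1 in macrophages (difference 2.05, SE 0.21, edgeR adjusted p = 2.82e-18). F13a1 rose in monocytes, from 322 and 388 to 567 and 655 CPM, and was at 330.3 and 401 and then 197 and 229 in macrophages (difference 1.45, SE 0.17, edgeR adjusted p = 4.51e-13). H2-Aa differed the other way, by -0.61 (SE 0.16, edgeR adjusted p = 0.0119). In monocytes it was at 1887 and 1489 CPM at 1 week and 2266 and 2028 at 2 weeks. It was 1 of 5 class II list members, of 15, with a lower change in monocytes by this test. Summed over the class II list, macrophages went from 20857 and 19376 CPM to 31705 and 33948. Monocytes went from 13540 and 11340 to 15986 and 13704. In the type I interferon list the change between weeks was lower in monocytes for 4 of 43 and higher for 0. Over all genes these shares were 0.946% and 0.598%. The median difference was -0.27 in the list and -0.01 over all genes, and 6 of 43 were called lower in macrophages themselves. For most members a difference between the classes was not detected.

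The comparison of SOX17KO with Control asks whether monocytes differed with the genotype of the tumours. It used the 1-week and 2-week pairs, with collection as a term and 1 residual degree of freedom, because the untimed SOX17KO library held only 9 monocytes. Of 9148 genes, 46 (0.503%) passed an edgeR adjusted p of 0.05, 30 higher (0.328%) and 16 lower (0.175%), and 44 of the 46 had the same sign in both pairs. At an unadjusted p under 0.05 there were 479 (5.24%). The count was 0 with DESeq2 (64 unadjusted), 0 with the barcodes of highest doublet score left out (353 unadjusted, although only 47 monocytes were removed), and 0 with no collection term (66 unadjusted). None of the 20 genes named here passed in all 14 alternative settings, and 19 kept their direction in all.

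Among genes of monocyte function, Chil3 was higher in SOX17KO, at 533 CPM in Control and 1041 in SOX17KO at 1 week and 763 and 1058 at 2 weeks. Both SOX17KO values lay above both Control values (log2 fold change 0.71, SE 0.16, edgeR adjusted p = 0.0054), while the untimed pair had 303 and, on 12 UMIs, 216 CPM. After thinning a Chil3 UMI remained in 31.7% and 46.5% of monocytes at 1 week and in 36.8% and 42.1% at 2 weeks, against at most 0.3% of T cells. Saa3, an acute phase protein, was at 20.3 and 96.3 CPM at 1 week but at 50.2 and 56.9 at 2 weeks (1.42, SE 0.22, edgeR adjusted p = 1.06e-05), so most of its difference came from the 1-week pair. T cells of the same 4 libraries held 48.0, 66.0, 33.7 and 16.8 CPM of Saa3, above the monocytes in Control at 1 week and below them in the other 3, and macrophages held 17.3, 57.4, 27.7 and 114. Tnf, the inflammatory cytokine, was at 62.2 and 75.7 CPM at 1 week and 40.5 and 119 at 2 weeks (0.75, SE 0.19, edgeR adjusted p = 0.0347). Nfkbiz, a regulator of NF-kappaB target genes, was at 365 and 549 and at 421 and 688 CPM (0.64, SE 0.15, edgeR adjusted p = 0.0166).

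Lower in SOX17KO was Cd36, a scavenger receptor that takes up lipids, at 73.5 and 46.9 CPM at 1 week and 64.0 and 20.8 at 2 weeks (-0.94, SE 0.20, edgeR adjusted p = 0.00389). In macrophages Cd36 was at 191 and 149 and at 57.4 and 275 CPM, and the difference between classes passed (-1.29, SE 0.22, edgeR adjusted p = 3.31e-06). Slc7a2, a carrier of arginine, was at 108 and 66.2 CPM and at 72.9 and 39.7 (-0.77, SE 0.18, edgeR adjusted p = 0.0151), and differed from macrophages by -0.84 (SE 0.21, edgeR adjusted p = 0.0242). Ccl7 (-0.88, SE 0.19, edgeR adjusted p = 0.0054) and Ccl24 (-0.68, SE 0.18, edgeR adjusted p = 0.0368) were lower, and their levels at both weeks stand above. In T cells the log2 ratio of Ccl7 was -2.42 at 1 week and -0.25 at 2 weeks, and that of Ccl24 -3.14 and 0.02. The part of stray myeloid RNA in the genotype difference of these ligands was not tested. Isg15 was lower by 0.79 on the log2 scale of the ratio at 1 week and 0.54 at 2 weeks (fitted -0.70, SE 0.16, edgeR adjusted p = 0.00948), in macrophages by a fitted -0.88. Values with no call were Ifit1 (-0.72, edgeR adjusted p = 0.0746), Oasl1 (-0.67, edgeR adjusted p = 0.146), Flt1 (-0.63), Hspa5 (-0.50) and Erh (-0.60).

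Genes for short ribosomal and mitochondrial proteins were 7 of the 10 named genes higher in SOX17KO, and their ratios were raised in the other classes too. Rpl38 was at 963 and 1344 CPM at 1 week and 867 and 2071 at 2 weeks in monocytes (0.85, SE 0.16, edgeR adjusted p = 0.000815). Its log2 ratio was 0.48 and 1.26 in monocytes, 0.52 and 1.07 in macrophages, 0.44 and 1.15 in T cells, and 0.25 and 1.04 in neutrophils. Rps28 had 0.47 and 1.24 in monocytes and 0.46 and 1.03 in T cells, and Atp5k 0.59 and 1.22 against 0.37 and 1.04. Of 80 ribosomal protein genes tested, a group chosen after its values were seen, 7 were called higher and 0 lower, with a median of -0.05. The ratios of Rpl38 and Rps28 were positive in each class, and that of Rpl38 at 1 week was lower in neutrophils than in the others.

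Fibroblast genes stood out as well. All 5 fibroblast markers were called, with Col1a1, Col1a2, Col3a1 and Sparc lower and Dcn higher in SOX17KO, at low levels: Col1a1 was at 18.7 and 7.48 CPM at 1 week and 48.6 and 4.51 at 2 weeks. Summed, the markers stood at 104 and 96.7 and at 229 and 80.3 CPM in monocytes, against 1858 and 2085 and 978 and 1925 in T cells. The part of RNA from fibroblasts, which a CD45 sort should remove, was not tested. In the test of monocytes against macrophages, 23 of 10039 genes passed (0.229%), 4 higher in monocytes (0.0398%) and 19 lower (0.189%), and 4 of the 5 fibroblast markers were among those lower.

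**Figure D5:**
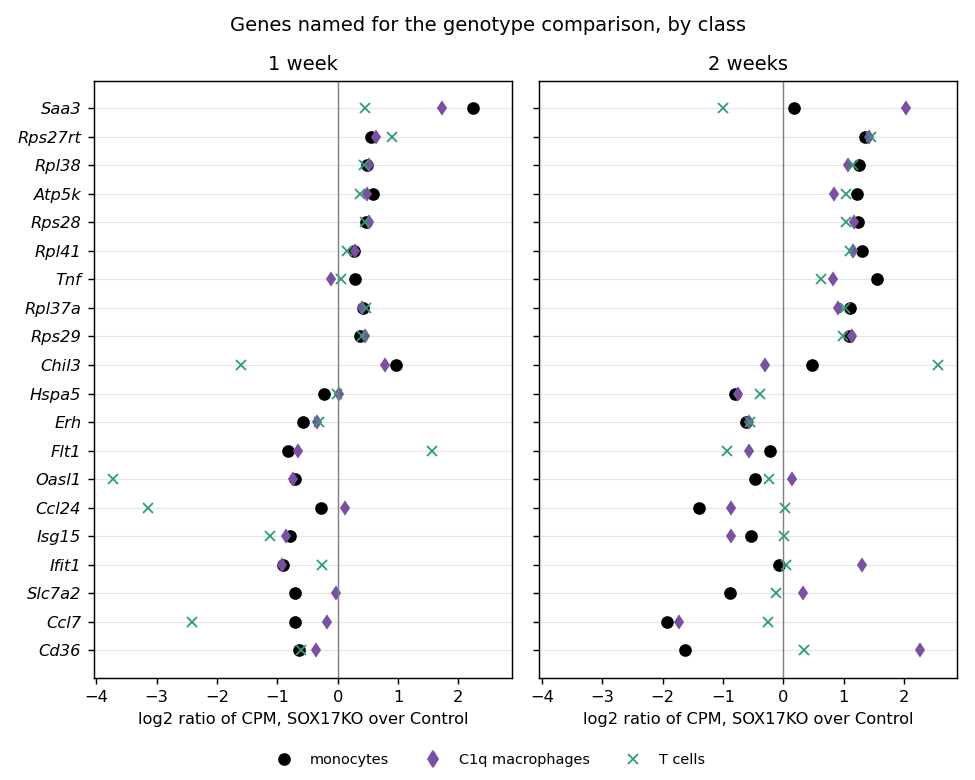
Points give the log2 ratio of CPM, SOX17KO over Control (horizontal axes), for the 20 genes named in this comparison, at 1 week on the left and at 2 weeks on the right, in monocytes (black circles), C1q macrophages (purple diamonds) and T cells (green crosses), with no point where a library had 0 UMIs. Ribosomal genes such as Rpl38 sit together in all 3 classes (0.44 to 0.52 at 1 week, 1.07 to 1.26 at 2 weeks), while Cd36 is lower in monocytes and higher in macrophages at 2 weeks.

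Few list members were called with genotype, beside 0.328% of all genes higher and 0.175% lower. In the type I interferon list 2 of 43 were called lower, Isg15 and Isg20, with a median of -0.23 in the fit. Its median ratios were -0.35 at 1 week and 0.02 at 2 weeks. Of 19 chemokine ligands 1 was called higher and 2 lower, and of 23 genes of the passage to macrophage 2 were called higher. The inflammatory cytokine, suppressive, acute phase and mitochondrially encoded lists had 1 higher each. The nonclassical monocyte and lipid lists had 1 lower each. No member of the interferon-gamma, MHC class I, MHC class II, hypoxia, chemokine receptor or immediate early lists was called, with medians between -0.23 and 0.07. Of the 27 classical monocyte genes, Chil3 alone was called. Ly6c2 was at 1043 and 999 CPM at 1 week and 1276 and 1424 at 2 weeks (0.04, SE 0.16, edgeR adjusted p = 0.999), and Ccr2 at 1022 and 1092 and 1395 and 1517 (0.10, edgeR adjusted p = 0.999). A miss of the threshold does not show equal levels, since 4 libraries carry the test.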

How the data were processed

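The deposited files are count matrices: whole-number UMI counts per gene and barcode, 1 matrix for each of the 6 libraries, not normalized. They were made by the authors with Cell Ranger against mm10, version 6.0.1 per the submitters' processing notes and 7.0.1 per the file headers. Whether intronic reads were counted, and the annotation release, are not given in the sources used here. Barcodes with under 200 genes or over 10% mitochondrial UMIs were left out. Monocytes were chosen by the UMI thresholds given above, and C1q macrophages, neutrophils, Cd209a dendritic cells and T cells by similar ones. Doublets were kept; leaving out the barcodes of highest Scrublet score (scanpy 1.11.5, 0.8% per 1000 barcodes) was an alternative.

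Counts were summed per library over the monocytes, in libraries with at least 20. They were tested with edgeR 4.0.16 (R 4.3.3, filterByExpr, TMM, quasi-likelihood, Benjamini-Hochberg 0.05). The fit was also run on simulated counts that used the means and sizes of these sums. Those counts gave every gene the same spread beyond counting error. They cannot show how the fit does where genes differ in spread. Alternatives were DESeq2 1.42.0, limma 3.58.1 (voom), other scalings, filters, gates and samples. Depth was 55491 to 5346946 summed monocyte UMIs per library. With 1 pool per group, p-values measure the spread between these libraries only. With 1 residual degree of freedom, edgeR took that spread mostly from all genes together (median prior degrees of freedom 123 in both main fits). A gene's own disagreement between pairs therefore weighed little in its p-value. In the genotype fit the prior was 8.98 without the highest doublet scores and 5.61 with no collection term. The genes named are the 10 called genes with the largest change in each direction, with the same sign in every pair and a mean of at least 50 CPM; where fewer than 10 were called, those of lowest p were added as values. Members of the lists described, monocyte markers and genes of the rule were named as well. The members and the 32 lists were chosen with earlier results of these data known, and ribosomal and collagen groups after their values were seen. Gene positions are from GENCODE M21. A few genes are not reported here.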

Additional observations from a re-analysis of the deposited data

Results flagged for a closer look

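Between weeks, 9 of the named genes changed in monocytes by a different amount than in C1q macrophages of the same libraries, by edgeR's test of that difference. The difference was -1.58 for Scimp (edgeR adjusted p = 7.7e-08), -1.45 for Ccl24 (edgeR adjusted p = 6.65e-12), -1.14 for Fabp5 (edgeR adjusted p = 4.13e-07) and -1.01 for Ccl7 (edgeR adjusted p = 0.0349). It was -0.97 for Ccl12 (edgeR adjusted p = 0.0376), -0.92 for Ifit2 (edgeR adjusted p = 0.0304) and -0.87 for Serpina3g (edgeR adjusted p = 0.0088). It was 0.92 for Ssh2, a phosphatase acting on cofilin (edgeR adjusted p = 0.00101), and 0.65 for Abca1 (edgeR adjusted p = 0.0365). Ssh2 was at 66.3 and 81.5 CPM at 1 week and 186 and 189.5 at 2 weeks in monocytes, and at 95.9 and 103 and then 106 and 142 in macrophages.

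Between genotypes the difference was -1.29 for Cd36 (edgeR adjusted p = 3.31e-06) and -0.84 for Slc7a2 (edgeR adjusted p = 0.0242). The macrophage ratio of Cd36 was -0.37 at 1 week and 2.26 at 2 weeks, so its difference from monocytes came from the 2-week pair.

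The log2 odds ratio of the monocyte share was -0.17 at 1 week and 0.20 at 2 weeks, opposite in sign, and the difference between the pairs was not tested. Hspa5, which encodes a chaperone of the endoplasmic reticulum, had a log2 ratio of 0.70 in the untimed pair, opposite to both timed pairs. That difference was not tested either, and 9 monocytes carry the untimed SOX17KO value.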

How the results depend on the processing

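The mean log2 odds ratio of the share, -1.04, ranged from -1.66 to 0.015 when 1 pair was left out, and turned positive without the untimed pair, at 0.015. Genes called between genotypes, 46, came to 17 with all 3 collections, 6 with a C1q sum of at most 2, and 0 each with DESeq2, without the highest doublet scores and with no collection term. With 1 of the 3 collections left out they came to 1 to 6. Of the 17, 15 were among the 46. Hspa5, at -0.50, ranged from -0.23 to 0.018 with a collection left out, and was reversed at 0.018 without the 2-week pair. Genes called between weeks, 1361, came to 651 with all 6 libraries, 292 with DESeq2, 751 without the highest doublet scores and 810 with no genotype term. All 292 were among the 1361, as were 748 of the 751. In each case the cause was not tested.

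Without thinning, the difference in the share of cells with a UMI, 2 weeks minus 1 week, was -3.64 percentage points for Chil3 (0.318 thinned) and -1.68 for Nos2 (1.29), both reversed, 2.10 for H2-Aa (8.96) and -5.43 for Arg1 (-1.83); unthinned shares follow depth, which was lower at 2 weeks. Using only the 1-week and 2-week pairs is the genotype fit itself, and leaving out a pair of it leaves no residual degree of freedom, so pairs were left out of the fit with 3 collections. The 9 monocytes of the untimed SOX17KO library limit what that pair can show.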

Other observations

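The untimed pair entered a fit between weeks only in the alternative with all 6 libraries, and its monocytes differed in level from the timed libraries. Summed over the interferon-gamma list, monocytes held 2606 CPM in the untimed Control library and 1298 in SOX17KO, against 9385 to 14943 in the timed libraries. Of its 33 members, 4 had 0 UMIs in the untimed Control library and 18 in SOX17KO. There 3 counts would be 4.89 and 54.1 CPM. Cxcl9 was at 1.63 CPM in Control and 0 UMIs in SOX17KO, against 580.2 to 1309 CPM in the timed libraries. Serpina3g had 0 UMIs in both, against 70.4 to 313 CPM, and Gbp2 was at 158 CPM in Control and 0 UMIs in SOX17KO, against 1117 to 1893 CPM. Thbs1 was at 4944 CPM in the untimed Control library and 1081 in SOX17KO. These are values of 89 and 9 monocytes, with no test.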
